A study of Mus musculus with 8 samples.

Results

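Integrins are the receptors that fix leukocytes to vessel walls, matrix and other cells. The RNA levels of 10 integrin subunits, picked by gene symbol, were described in tumor-associated macrophages (TAMs). They were Itgam, Itgax, Itgal, Itgb2, Itga4, Itgb1, Itgb7, Itgav, Itgb5 and Itga6, chosen with earlier results of these data known. They are 10 of the 53247 genes of the deposited RNA-Seq table, and of the 26 mouse integrin genes listed here. The question was how the β2 family (Itgam, Itgax, Itgal and Itgb2) compares with the other 6 subunits in WT and in miR-21-/- TAMs. Both groups came from C57/BL6 mice given as 10 weeks old, and as 8 weeks old when LLC cells, a mouse Lewis lung carcinoma line, were implanted s.c. At 14 days the tumors were digested, and TAMs positive for CD45, CD11b, MHCII and F4/80 were sorted, in 4 WT and 4 miR-21-/- samples labelled biological replicates. The miR-21-/- mice lack the microRNA miR-21 in every host cell and not only in macrophages, while the same LLC line was implanted in both groups. The label of miR-21-/- replicate 1 names more than 1 sample number without mention of a pool, and it entered as 1 sample.

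An integrin is a heterodimer of an α and a β chain, and the α chain mostly sets which ligand is bound. The β2 chain (Itgb2, CD18) pairs with CD11b (Itgam), CD11c (Itgax), CD11a (Itgal) or CD11d (Itgad), and these leukocyte receptors bind ICAMs, fibrinogen and the complement fragment iC3b. The β1 chain (Itgb1) joins many α chains and serves adhesion to matrix, α4 (Itga4) joins β1 or β7 (Itgb7) and binds VCAM-1, MAdCAM-1 or fibronectin, and αv (Itgav) joins β5 (Itgb5), among others, in receptors for the RGD motif of vitronectin and other ligands.

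Depth in units of 1e+06 reads was 20.2 to 33.4 per sample, so that 1 read was worth 0.0300 to 0.0495 CPM (counts per 1e+06 reads). The 10 subunits were far above that, with 563 reads for Itga6 in the sample with the fewest and 64361 for Itgam in the sample with the most. Mir21a was listed at 0 in all samples of both genotypes and could not check the labels. Of the sort genes, Ptprc (CD45) and H2-Ab1 (MHCII) overlapped between the genotypes, while Adgre1 (F4/80) was lower in miR-21-/- TAMs, at 433 ± 27.5 CPM against 564 ± 19.4 (SD, n = 4 each, limma adjusted p = 0.00140). CD11b is the product of Itgam, so Itgam in these cells was conditioned on the sort.

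The RNA that miR-21-/- mice lack is 22 bases long and lies on the minus strand of chr11:86584120-86584141 (RefSeq, GRCm38.p6). It is shown because its seed, bases 2 to 8 in capitals, can be looked for in the 3′ UTRs of the subunits.
mmu-miR-21a-5p: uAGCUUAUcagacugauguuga

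Taking for every gene its longest 3′ UTR in GENCODE vM21 (GRCm38), 3 of the 10 subunits held a match to the seed of 6 bases or more, against 26.5% of the 11443 tested genes with a 3′ UTR. A match of 8 bases was in 1 of 10 (2.24% of tested genes), and one of 7 or 8 bases in 2 of 10 (12.4%). The longest match of each of these 3 subunits is printed 5′ to 3′ with the match in capitals, followed by the 8-base match of Itga1, the subunit outside the 10 with the largest increase. Coordinates are those of the match. The Itgav match lies at chr2:83803796-83803803, the longest match of Itga4 at chr2:79328731-79328737, the Itgb1 match at chr8:128732996-128733001, all on the plus strand, and the Itga1 match at chr13:114957302-114957309 on the minus strand.
Itgav, 8 bases: ttgacttcATAAGCTActgaagac
Itga4, 7 bases: aattttatATAAGCTttaaaatg
Itgb1, 6 bases: aaatactgTAAGCTgtcctgct
Itga1, 8 bases: cccctgacATAAGCTAcatattag

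None of Itgb7, Itga6, Itgb5 and Itgb2, the 4 subunits that passed the limits of the study between the genotypes, held even the 6-base match in that 3′ UTR, which was 165 bases long in Itgb7, 1310 bases in Itga6, 586 bases in Itgb5 and 446 bases in Itgb2. A match is a description of letters and not a shown site of binding.

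Differences were tested with limma on log2(CPM + 1) over 13850 genes, and a gene was counted as changed if it met the limits of the study, which are a Benjamini-Hochberg adjusted p of 0.005 or less and more than 1.5-fold change. Log2 fold changes are miR-21-/- over WT. Of the 10 subunits, 4 passed, 2 higher (Itgb7 and Itgb2) and 2 lower (Itgb5 and Itga6), while of all tested genes 7.12% passed, 2.89% higher and 4.23% lower. Over all tested genes 400 were higher and 586 lower as deposited, and 520 higher and 350 lower after rescaling by the median of ratios, which moved their median by 0.10 and left the same 4 subunits past the limits. Under a looser rule, an adjusted p of 0.05 or less with no fold limit, Itgal was added as higher and made 5 of 10, against 36.0% of all tested genes. The genotypes did not overlap in the same 5 subunits, and in 35.1% of all tested genes. The median log2 fold change was 0.15 over the 10 subunits and -0.10 over all tested genes. Since RNA of whole samples was measured, fewer cells of a type and less RNA per cell cannot be told apart in any of these values.

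**Figure D1:**
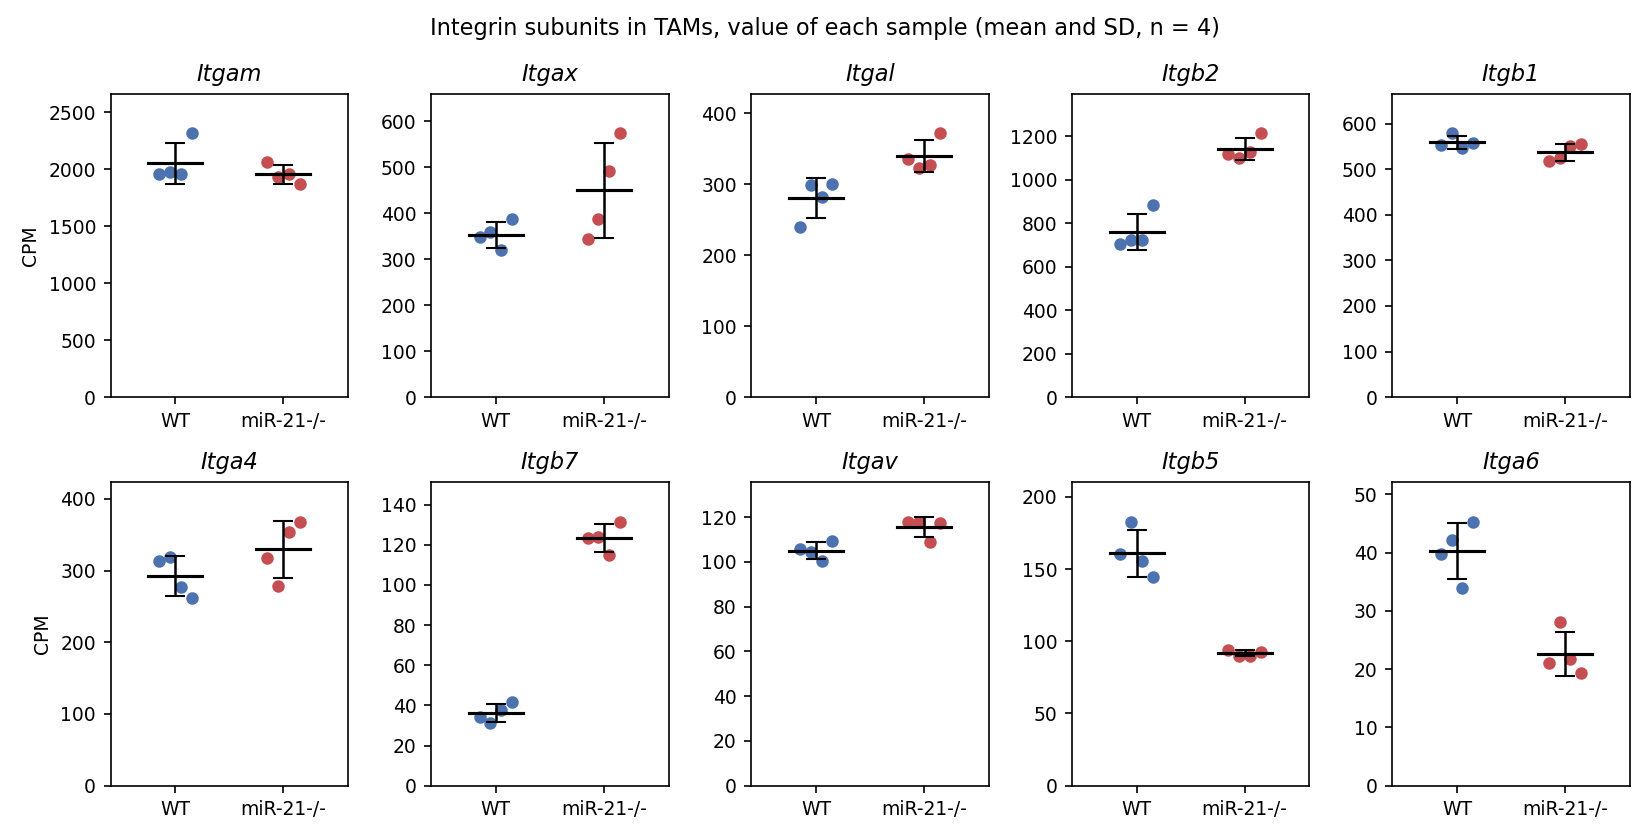
CPM of the 10 subunits in each sample (points, in the order of replicates 1 to 4), with the mean (long line) and SD (bars) of the 4 WT and the 4 miR-21-/- samples, each y axis from 0. The genotypes separate in Itgb2, Itgb7, Itgb5, Itga6 and Itgal and overlap in the other 5 subunits.

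Itgb2, the β chain shared by the whole β2 family (chr10:77530252-77565708), had 705, 725, 723 and 881 CPM in the WT samples, given here and throughout in the order of replicates 1 to 4, and 1118, 1099.8, 1127 and 1214 CPM in the miR-21-/- samples. Every miR-21-/- sample was above the highest WT sample, which was replicate 4. The mean rose from 758 ± 82.5 to 1139.8 ± 50.8 CPM (SD, n = 4), a log2 fold change of 0.59 (standard error 0.08, 95% interval 0.41 to 0.78, limma adjusted p = 0.000657). That is 1.51-fold, just over the limit, and the call was lost after quantile normalization (0.53) and without WT replicate 1 (0.56), WT replicate 2 (0.57), WT replicate 3 (0.57) or miR-21-/- replicate 4 (0.56). It was the fold limit that failed there, since the limma adjusted p stayed between 0.000119 and 0.00472 in all fits.

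None of the 3 α chains of the β2 family among the 10 subunits passed the limits of the study. Itgam, the CD11b chain of the complement receptor Mac-1 (chr7:128062640-128118491), had 1959, 1973, 1957 and 2318 CPM in WT samples and 2068, 1930, 1959 and 1867 CPM in miR-21-/- samples. The genotypes overlapped throughout, and WT replicate 4 stood above all others. Its log2 fold change was -0.07 (95% interval -0.26 to 0.12, limma adjusted p = 0.576), and it turned to 0.05 when samples were rescaled by the median of ratios.

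Itgal, the CD11a chain of LFA-1, which binds ICAM-1 (chr7:127296260-127335138), had 240.3, 299, 282 and 299.7 CPM in WT samples and 336, 323, 327 and 372 CPM in miR-21-/- samples. All miR-21-/- samples were above all WT samples, by a narrow margin. The log2 fold change was 0.28 (standard error 0.08, 95% interval 0.10 to 0.46, limma adjusted p = 0.0222), so Itgal was higher by the looser rule only. That was lost without miR-21-/- replicate 4, its highest sample (limma adjusted p = 0.0608), with no filter on low genes (0.0642) and after quantile normalization (0.0821).

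Itgax, the CD11c chain that is also known from dendritic cells (chr7:128129547-128150657), had 347, 359, 319 and 388 CPM in WT samples and 344, 388, 491 and 574 CPM in miR-21-/- samples. Replicates 3 and 4 of miR-21-/- TAMs were well above the WT range, replicate 2 was level with its upper end and replicate 1 was inside it. The log2 fold change of 0.32 (95% interval 0.00389 to 0.64) did not pass either rule (limma adjusted p = 0.104), and it moved with single samples. Without miR-21-/- replicate 1 it was 0.44 (limma adjusted p = 0.0262) and without miR-21-/- replicate 4 it was 0.19 (limma adjusted p = 0.239). The same miR-21-/- replicates 3 and 4 had the highest sum of 7 dendritic cell markers, which was 15.2, 15.3, 22.5 and 38.4 CPM in miR-21-/- samples 1 to 4 and 11.2 to 19.9 CPM in WT samples. That sum was carried by Xcr1 (3.32, 4.35, 10.1 and 20.7 CPM) and Clec9a (4.18, 5.84, 8.71 and 13.97 CPM in miR-21-/- samples). In WT samples Xcr1 had 1.73 to 7.05 CPM and Clec9a 2.30 to 2.74 CPM. Clec9a was higher by the looser rule (limma adjusted p = 0.00532), while Xcr1 passed neither rule (limma adjusted p = 0.117). Of the 6 tested markers 2 passed the looser rule, 1 higher and 1 lower, against 36.0% of all tested genes. The rest of the list did not follow, since Flt3 was lowest of all 8 samples in miR-21-/- replicates 3 and 4 (0.576 and 0.496 CPM), Zbtb46 and Ccr7 were lower there than in replicates 1 and 2, Cd209a was lower by the looser rule in miR-21-/- TAMs, and Siglech was at 6 reads or fewer. Their part in the Itgax values was not tested.

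Itgam, Itgax and Itgad follow each other on chromosome 7, with 1386 bases between the Itgam and Itgax rows of the table and 3718 bases between those of Itgax and Itgad. Their coding sequences are close paralogs, so reads shared between them make their values uncertain. In the table, Itgam runs to 128128160, which is 9669 bases past its end in GENCODE vM21.

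Among the 10 subunits, the largest change was that of Itgb7, the β chain that joins α4 or αE in receptors known from gut-homing lymphocytes (chr15:102215995-102231944, minus strand). It had 34.2, 31.2, 37.5 and 41.7 CPM in WT samples and 123, 124, 115 and 132 CPM in miR-21-/- samples. The lowest miR-21-/- sample was far above the highest WT sample. The mean rose from 36.2 ± 4.50 to 123 ± 6.78 CPM (SD, n = 4), a log2 fold change of 1.75 or 3.36-fold on the log2(CPM + 1) scale (standard error 0.08, 95% interval 1.56 to 1.94, limma adjusted p = 1.53e-06). Of all tested genes, 0.722% had a larger absolute log2 fold change. Over 8 fits that left out a sample, the log2 fold change of Itgb7 was 1.68 to 1.82, and the call held in each.

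The partner chain of Itgb7, Itga4 (chr2:79255426-79333123), had 314, 318, 277 and 261 CPM in WT samples and 318, 279, 354 and 368 CPM in miR-21-/- samples. The genotypes overlapped, and miR-21-/- replicates 3 and 4 were the highest of the 8. Its log2 fold change was 0.17 (95% interval -0.05 to 0.38, limma adjusted p = 0.206).

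Itgb1, the most widely used β chain (chr8:128685654-128733200), had 553, 579, 546 and 557 CPM in WT samples and 517, 525, 551 and 555 CPM in miR-21-/- samples. The genotypes overlapped. The log2 fold change was -0.06 (95% interval -0.18 to 0.06, limma adjusted p = 0.441), and after rescaling by the median of ratios it was 0.06.

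Of the chains of the αvβ5 receptor, the β chain fell and the α chain passed neither rule. Itgav itself (chr2:83724397-83806916) had 106, 104, 100.3 and 109 CPM in WT samples and 118, 118, 109 and 117 CPM in miR-21-/- samples, so that 3 of 4 miR-21-/- samples were above all WT samples. Its log2 fold change was 0.14 (95% interval 0.03 to 0.25, limma adjusted p = 0.0553). The looser rule was met after rescaling by the median of ratios (0.25, limma adjusted p = 0.00729) and after quantile normalization (0.17, limma adjusted p = 0.0371). It was also met with arrayWeights (0.14, limma adjusted p = 0.0484), without WT replicate 4 (0.16, limma adjusted p = 0.0426) or without miR-21-/- replicate 3 (0.17, limma adjusted p = 0.0429). Its β chain Itgb5 (chr16:33829665-33949338) had 160.2, 183, 156 and 145 CPM in WT samples and 94.1, 90.1, 90.1 and 92.5 CPM in miR-21-/- samples. All miR-21-/- samples lay well under the lowest WT sample and within a few CPM of each other. The mean fell from 161 ± 16.1 to 91.7 ± 1.99 CPM (SD, n = 4), a log2 fold change of -0.80 (standard error 0.07, 95% interval -0.95 to -0.65, limma adjusted p = 4.26e-05).

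Itga6, the α chain of the laminin receptors (chr2:71745616-71858416), had 39.7, 42.1, 34.0 and 45.3 CPM in WT samples and 21.0, 28.0, 21.8 and 19.4 CPM in miR-21-/- samples. The highest miR-21-/- sample, replicate 2, was under the lowest WT sample. The mean fell from 40.3 ± 4.78 to 22.6 ± 3.79 CPM (SD, n = 4), a log2 fold change of -0.82 (standard error 0.12, 95% interval -1.08 to -0.55, limma adjusted p = 0.000735). With no filter on low genes the limma adjusted p was 0.00565, over the limit of 0.005.

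**Figure D2:**
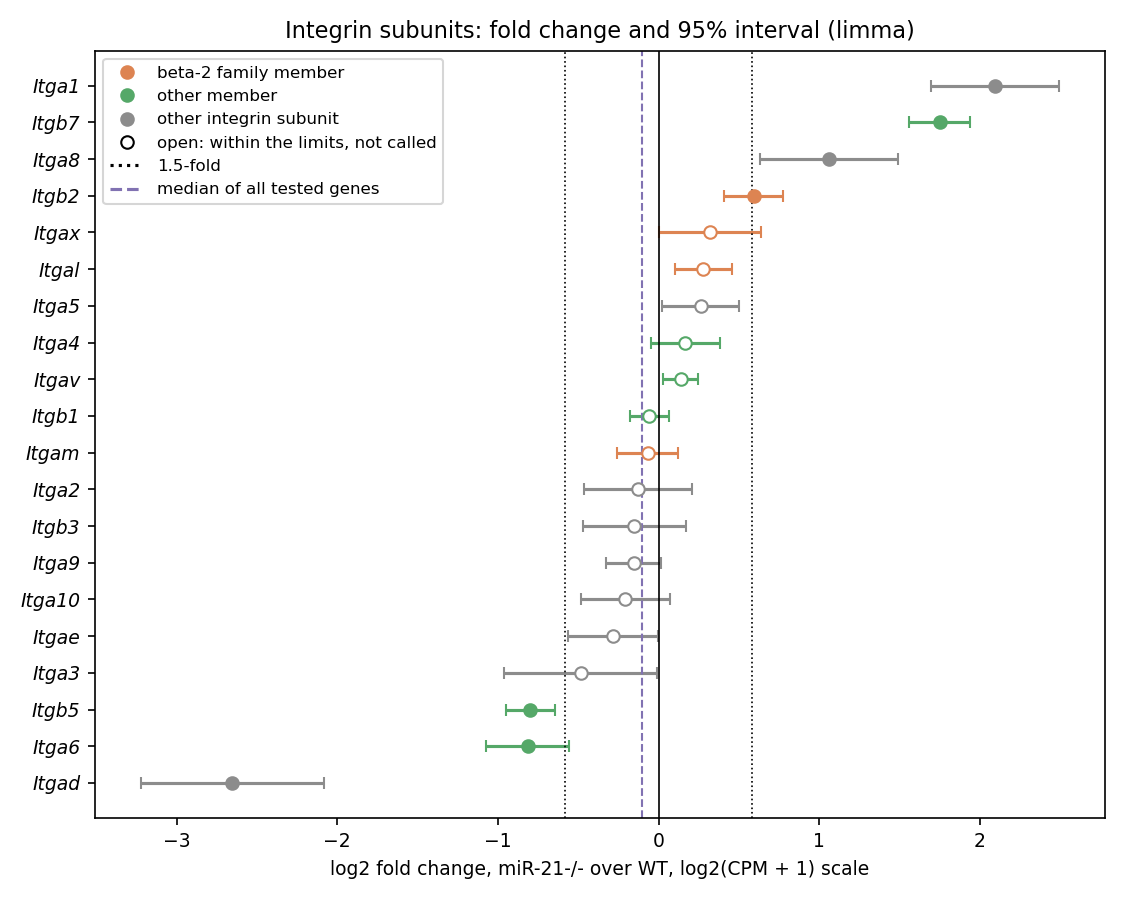
Log2 fold change (miR-21-/- over WT, log2(CPM + 1) scale) with its 95% interval from limma for the 10 subunits and the 10 other integrin genes that were tested. Filled points passed both limits, dotted lines mark the fold limit of 1.5 and the dashed line the median of all tested genes (-0.10). Itga1 and Itgb7 are highest and Itgad lowest.

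The β2 family was then set beside the other 6 subunits. Of the β2 family 1 of 4 passed the limits of the study (Itgb2), and of the others 3 of 6, 1 higher and 2 lower, against 7.12% of all tested genes. The median log2 fold change was 0.30 in the β2 family and 0.04 in the others, a difference of 0.26. With log2 values centred on the WT mean, the median of the β2 family minus that of the others was -0.07, -0.07, -0.01 and 0.13 for WT replicates 1 to 4, while for miR-21-/- replicates 1 to 4 it was 0.13, 0.25, 0.34 and 0.47. The lowest miR-21-/- sample, at 0.135, was barely above the highest WT sample, at 0.130. No test was made over the genes, which are not replicates. The difference of 0.26 was 0.19 to 0.32 when a sample was left out and 0.24 to 0.30 under the other settings. The log2 fold changes ran from -0.07 (Itgam) to 0.59 (Itgb2) in these 4 genes of the β2 family and from -0.82 (Itga6) to 1.75 (Itgb7) in the other 6 subunits. Itgad, the β2 family gene outside the 10 subunits, was at -2.65.

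Levels of different genes were compared per kilobase of exon, as CPM per kb. In WT TAMs the order was Itgam (408), Itgb2 (248), Itgb1 (137), Itgax (73.6), Itgb5 (45.3), Itgal (42.7), Itga4 (20.9), Itgb7 (13.1), Itgav (9.77) and Itga6 (4.46 CPM per kb). Only Itgb5 and Itgal, as neighbours in that order, had overlapping ranges over the 4 samples. In miR-21-/- TAMs the order was Itgam (389), Itgb2 (373), Itgb1 (132), Itgax (93.6), Itgal (51.7), Itgb7 (44.6), Itgb5 (25.8), Itga4 (23.6), Itgav (10.8) and Itga6 (2.50 CPM per kb). There Itgam and Itgb2 overlapped, as did Itgb5 and Itga4, and Itgb7 stood in place 6 instead of place 8. Both overlaps came from miR-21-/- replicate 4, and without it all 9 neighbours were apart. With the longest annotated transcript as length, Itgb7 was in place 6 as well in miR-21-/- TAMs but in place 9 in WT TAMs, where its range overlapped that of Itgav (13.5 and 14.9 CPM per kb). Itgal then stood above Itgb5 in WT TAMs and Itga4 above Itgb5 in miR-21-/- TAMs, with overlapping ranges in both, and Itgb1 and Itgax overlapped in miR-21-/- TAMs.

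**Figure D3:**
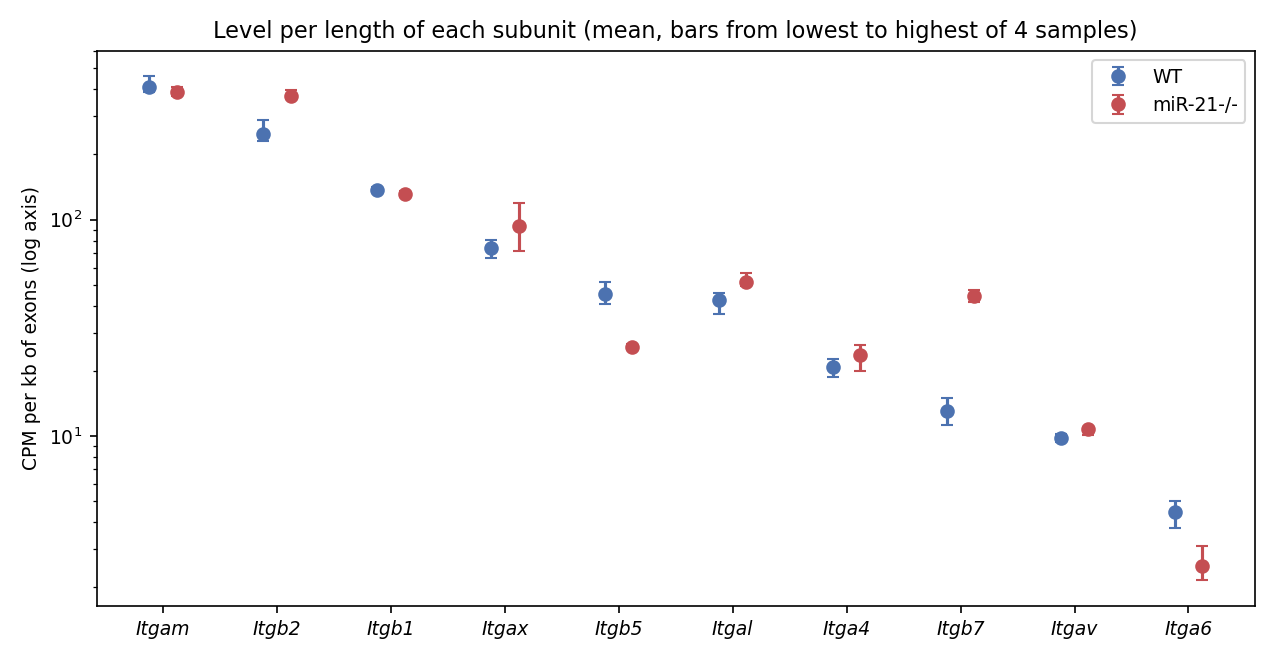
CPM per kb of exon of each subunit (log axis, mean of 4 samples, bars from the lowest to the highest sample), ordered by the WT mean. Itgb2 comes closer to Itgam in miR-21-/- TAMs, where the ranges overlap through replicate 4, and Itgb7 moves above Itgb5 and Itga4.

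The balance of chains that can pair was computed in each sample from the same CPM per kb, as a description of RNA and not of protein. The ratio of Itgb2 to Itgb1 was 1.71, 1.67, 1.77 and 2.12 in WT samples and 2.89, 2.80, 2.73 and 2.93 in miR-21-/- samples. The ratio of Itgam to Itgb2 was 1.65 ± 0.0377 in WT and 1.04 ± 0.0794 in miR-21-/- TAMs. All 4 α chains of the β2 family together were 2.13 ± 0.0602 times Itgb2 in WT and 1.43 ± 0.0410 times Itgb2 in miR-21-/- TAMs. The genotypes did not overlap in any of these ratios, and no test was made of them.

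For the chains that can pair with α4, Itgb7 was 8.35%, 7.36%, 9.19% and 9.93% of the sum of Itgb1 and Itgb7 in WT samples and 25.99%, 25.8%, 23.5% and 25.9% in miR-21-/- samples. Itga4 was 1.64 ± 0.350 times Itgb7 in WT and 0.530 ± 0.0693 times in miR-21-/- TAMs, so that Itga4 was the higher of the pair in every WT sample and Itgb7 in every miR-21-/- sample. The ratio of Itgb5 to Itgav was 4.64 ± 0.533 in WT and 2.40 ± 0.0800 in miR-21-/- TAMs (SD, n = 4). Itgb2 was 55.7% ± 2.86 of all β chains in WT and 64.7% ± 0.472 in miR-21-/- TAMs. Itgb2 and its 4 α chains made up 71.6% ± 2.00 of the level of all 26 integrin genes in WT and 74.1% ± 0.222 in miR-21-/- TAMs, where WT replicate 4, at 74.5%, was above all miR-21-/- samples.

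**Figure D4:**
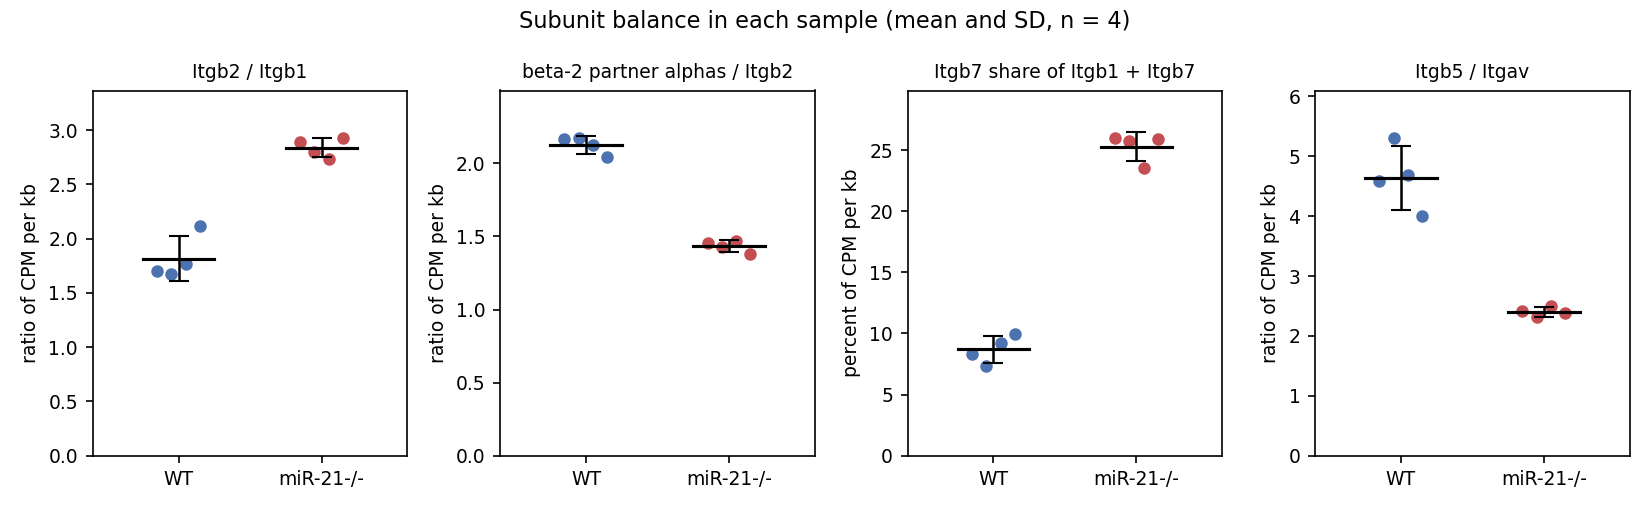
Ratios and shares of CPM per kb in each sample (points), with mean and SD of 4 samples per genotype, each y axis from 0. In all 4 panels the genotypes are apart: Itgb2 over Itgb1 and the share of Itgb7 are higher in miR-21-/- TAMs, while the summed α chains over Itgb2 and Itgb5 over Itgav are lower.

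The remaining 16 integrin genes were read from the same fit. Of these, 10 were tested, and 3 passed the limits (7.12% of all tested genes did), Itga1 and Itga8 higher and Itgad lower. The same 3 of 10 passed the looser rule, a share under the 36.0% of all tested genes, and the median log2 fold change of the 10 was -0.15. Itga1, the α chain of a collagen receptor (chr13:114953096-115101964, minus strand), had 16.3, 9.57, 11.3 and 11.1 CPM in WT samples and 70.6, 59.8, 47.6 and 42.1 CPM in miR-21-/- samples. Every miR-21-/- sample exceeded every WT sample, and Itga1 rose by a log2 fold change of 2.10 (standard error 0.18, limma adjusted p = 3.98e-05).

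Itgad, the remaining α chain of the β2 family, had 6.20, 14.2, 15.9 and 9.22 CPM in WT samples and 0.640, 0.581, 1.46 and 0.893 CPM in miR-21-/- samples. The groups were far apart, and Itgad fell by 2.65 on the log2(CPM + 1) scale (standard error 0.26, limma adjusted p = 8.07e-05). Of the 5 genes of the β2 family, counting Itgad, only Itgb2 rose past the limits and only Itgad fell. Itga8, whose product joins β1 in an RGD receptor, rose from 15.1 ± 4.63 to 31.6 ± 4.09 CPM (log2 fold change 1.06, limma adjusted p = 0.00242). That call of Itga8 held in 2 of the 8 fits that left out a sample, those without WT replicate 1 or WT replicate 2. Over the 8, the log2 fold change was 0.86 to 1.21 and the limma adjusted p was up to 0.00855. The call was also lost with no filter on low genes and with the replicate number as a block.

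No other integrin gene passed either rule. Itga9, the most abundant of them, had 418 ± 28.3 CPM in WT TAMs against 376 ± 33.9 CPM without miR-21. Itga5, the α chain of the classic fibronectin receptor, had 77.1 ± 6.56 and 93.3 ± 15.1 CPM (limma adjusted p = 0.0801). Itgb3, the other well-known partner of αv, had 8.84 ± 1.14 and 7.96 ± 1.78 CPM. Itga3 had 6.41 ± 2.18 and 4.20 ± 0.962 CPM, Itga2 2.41 ± 0.411 and 2.15 ± 0.558 CPM, and Itga10 1.43 ± 0.367 and 1.09 ± 0.0970 CPM. Itgae, the αE chain that pairs with β7, was near the floor of the test at 0.993 ± 0.233 and 0.633 ± 0.155 CPM (limma adjusted p = 0.101). The 6 genes under the filter on low values were Itga2b, Itga7, Itga11, Itgb4, Itgb6 and Itgb8.

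The 3 tested genes whose 8 log2 values, centred on the WT mean, were most like those of Itgb7 were Slco3a1, AC131187.2 and Vmp1, with root mean square differences of 0.11, 0.12 and 0.14. Slco3a1 rose from 19.3 ± 4.17 to 67.9 ± 6.56 CPM, AC131187.2 from 0.501 ± 0.0968 to 4.12 ± 0.244 CPM, and Vmp1, whose annotated span holds Mir21a, from 124 ± 9.08 to 397 ± 23.4 CPM. AC131187.2 had 10 reads in the sample with the fewest, so its log2 fold change of 1.77 is understated on the log2(CPM + 1) scale. Its likeness to Itgb7 is a likeness on that scale. The limma adjusted p was 1.62e-05 for Slco3a1, 2.98e-06 for AC131187.2 and 7.10e-07 for Vmp1. These genes were picked for values close to those of Itgb7 in all 8 samples. Their rise between the genotypes and their low adjusted p follow from that choice and are no separate result.

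Of 20 genes for integrin ligands, 16 were tested and 3 passed the limits, all of them higher, against 7.12% of all tested genes in either direction. Icam1, the ligand of LFA-1 and Mac-1, had 97.2, 103, 116 and 101 CPM in WT samples and 186, 176, 169.98 and 203 CPM in miR-21-/- samples. The groups did not overlap, and Icam1 rose by a log2 fold change of 0.81 (standard error 0.07, limma adjusted p = 5.61e-05). C3, whose fragment iC3b is bound by Mac-1, rose from 214 ± 29.1 to 519 ± 128 CPM (log2 fold change 1.25, limma adjusted p = 0.000385). Thbs1, the matrix protein thrombospondin-1, rose from 1229.6 ± 354 to 2631 ± 613 CPM (log2 fold change 1.12, limma adjusted p = 0.00328). Its call held in 3 of the 8 fits that left out a sample, those without WT replicate 1, WT replicate 3 or miR-21-/- replicate 4, with a limma adjusted p of up to 0.0107 over the 8, and it was also lost with no filter, after quantile normalization and with eBayes without trend. By the looser rule 8 passed, 4 higher, with Edil3 added, and 4 lower (F11r, Mfge8, Lamb1 and Lama5), against 36.0% of all tested genes, and the median over the 16 was -0.27.

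Of 30 genes for integrin activation and adhesion adaptors, all tested, 2 passed the limits, a share no higher than the 7.12% of all tested genes, and both fell. Parva, which encodes α-parvin, went from 13.0 ± 2.73 CPM to 5.81 ± 1.56 CPM (log2 fold change -1.05, limma adjusted p = 0.00264). Fermt2, which encodes kindlin-2, had 6.22 ± 0.980 and 3.18 ± 0.632 CPM (log2 fold change -0.79, limma adjusted p = 0.00216). Both calls were lost without WT replicate 2, WT replicate 3, WT replicate 4 or miR-21-/- replicate 1, and that of Parva also without miR-21-/- replicate 3. Both were also lost with a pseudocount of 10, with no filter and after quantile normalization, and that of Parva under the median of ratios. The leukocyte counterpart Fermt3, which encodes kindlin-3, had 240.5 ± 7.37 CPM with miR-21 and 240.5 ± 6.37 CPM without it. Tln1, which encodes talin and is needed to open integrins, was at 1227 ± 57.8 and 1195 ± 61.4 CPM (95% interval of the log2 fold change -0.19 to 0.12). By the looser rule 11 adaptors passed, 4 higher (Rap1b, Zyx, Ptk2b and Cyth1) and 7 lower, a share close to the 36.0% of all tested genes, and the median over the 30 was -0.09, near that of all tested genes.

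Markers of other cells were present. The 10 T and NK cell markers summed to 22.7 to 43.0 CPM in WT and 10.8 to 44.0 CPM in miR-21-/- samples, and 3 of the 8 tested passed the looser rule, a share close to the 36.0% of all tested genes, with Cd8a (1.92 ± 0.413 to 6.71 ± 3.66 CPM) and Nkg7 higher and Cd4 lower (16.6 ± 10.02 to 2.19 ± 1.148 CPM, limma adjusted p = 0.00206, past the limits of the study). Without Cd4 the other 9 summed to 13.0 to 16.7 CPM in WT samples and to 40.6, 19.9, 9.95 and 23.8 CPM in miR-21-/- samples, above all WT samples in 3 of 4. The 5 B cell markers summed to 11.4 to 17.6 CPM in WT and 3.84 to 11.3 CPM in miR-21-/- samples. Itgb7 and Itgal are also known from lymphocytes, and the part of these cells in their values was not tested. The 8 neutrophil markers, from cells that also carry Itgam and Itgb2, summed to 769 to 1169 CPM in WT and 565 to 741 CPM in miR-21-/- samples, lower in the group where Itgb2 was higher. Most of that sum was S100a8, S100a9 and Csf3r. Among the 7 tested, 5 passed the looser rule, all lower, against 36.0% of all tested genes. Mmp8 fell past the limits of the study, from 61.3 ± 6.52 to 35.2 ± 8.58 CPM (limma adjusted p = 0.00379). Ly6g, the defining marker, was the 1 tested marker with a log2 fold change above 0. Its values overlapped between the genotypes, with averages of 1.91 and 2.59 CPM. The part of these cells in the Itgb2 values was not tested.

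The 9 tumor and stromal cell markers summed to 214 to 384 CPM in WT and 225 to 304 CPM in miR-21-/- samples, most of it Pecam1. Without Pecam1 the other 8 summed to 70.4 to 102 CPM in WT and 29.1 to 46.5 CPM in miR-21-/- samples, with no overlap. Within the list 4 of the 8 tested passed the looser rule, against 36.0% of all tested genes, all lower, among them Col1a1 (22.7 ± 8.80 to 4.53 ± 4.38 CPM) and Pdgfra (15.7 ± 4.88 to 3.45 ± 1.04 CPM), in the group where Itga1 and Itga8 were higher and Itgb5 and Itga6 were lower. Their part in those values was not tested. The 6 eosinophil, basophil and mast cell markers summed to 3.35 to 3.60 CPM in WT and 0.806 to 1.95 CPM in miR-21-/- samples, with Epx and Prg2 under 3 reads in every sample. The 5 platelet markers overlapped at 21.7 to 104 and 48.7 to 85.6 CPM, with Gp5 under 3 reads in every sample. The 9 macrophage markers were at 10461.8 to 12302.5 CPM in WT and 11597 to 14026 CPM in miR-21-/- samples, and none was absent. Of these 9, Fcgr1 rose past the limits of the study, from 273 ± 35.4 to 458 ± 45.8 CPM (limma adjusted p = 0.000561), while Csf1r (1311 ± 160.02 to 939 ± 79.1 CPM, limma adjusted p = 0.00538) and Adgre1 were lower by the looser rule, so that 1 of 9 passed the limits and 3 of 9 the looser rule, against 7.12% and 36.0% of all tested genes.

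The 250 bases before the start site are shown for Itgam, the subunit with the highest level, and for Itgb7, the subunit with the largest change, on the strand of the gene (RefSeq, GRCm38.p6). The Itgam stretch is chr7:128062390-128062639 on the plus strand, and the Itgb7 stretch is chr15:102231936-102232185 on the minus strand, counted from the RefSeq start site, which lies 9 bases inside the GENCODE span of Itgb7 given with its values. Capitals mark GAGGAA, the core letters of sites for the myeloid factor PU.1, on either strand.
Itgam: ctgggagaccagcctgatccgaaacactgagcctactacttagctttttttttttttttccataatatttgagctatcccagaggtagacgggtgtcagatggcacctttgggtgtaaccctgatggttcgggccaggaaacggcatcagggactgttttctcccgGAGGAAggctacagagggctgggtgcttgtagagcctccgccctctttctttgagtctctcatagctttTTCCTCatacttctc
Itgb7: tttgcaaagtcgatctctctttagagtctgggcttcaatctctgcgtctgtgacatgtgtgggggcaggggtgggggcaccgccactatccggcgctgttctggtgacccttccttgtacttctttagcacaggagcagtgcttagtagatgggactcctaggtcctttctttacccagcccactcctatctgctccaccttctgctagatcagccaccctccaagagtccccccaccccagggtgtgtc

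Promoter entries (250 bases before to 50 after the start) were matched for 7 of the 10 subunits, all but Itgal, Itgb2 and Itga6. GAGGAA, searched on both strands, was in the promoters of Itgam, Itgb1, Itgav and Itgb7, where the only match began 3 bases after the start site and so outside the printed stretch, and in 28.3% of 32851 promoters of that length. TGTGGT, the core letters of RUNX sites, was in those of Itgax and Itga4 (16.8% of promoters). TTCNNNGAA, the letters of sites for STAT factors, was in none of the 7 (8.30% of promoters), which says only that these letters are not in this window.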

How the data were processed

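TAMs of 4 WT and 4 miR-21-/- samples were profiled by RNA-Seq of mRNA libraries. The deposited values are CPM to which the authors added 0.0001, made with STAR and Partek 7.0 on mm10 according to the submitters' processing notes. Gene models, the rule for reads that map to several places and the use of strand are not given in the sources used here, so genes that overlap on opposite strands or have close paralogs are uncertain. Genes that overlap a member on the annotation reached at most 1.95 CPM (Cerkl over Itga4), and Zfp740, 388 bases from Itgb7, had a mean of 59.6 CPM. All 37 mitochondrial genes were at the lowest value. The number of value columns not used was 0. No 2 columns were equal.

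Here 0.0001 was subtracted, log2(CPM + 1) was computed, and limma 3.58.1 in R 4.3.3 (lmFit, eBayes with trend, two-sided, Benjamini-Hochberg adjustment) was fitted over 13850 of the 30634 genes above the lowest value, those whose mean reached 1 per 1e+06 of the summed column. Fold changes of low genes are understated on this scale. P-values measure the spread between these 4 samples per genotype. Steps of the low values gave the depth. Between 76.5% and 77.3% of these values were whole reads, so that counts were not recovered and no count test was run. Levels per kb used the exon union of GENCODE vM21 (93.2% of the table's symbols, of which 97.1% with the same start). Python 3.11.15 and matplotlib 3.10.9 drew the figures. The fit was tested on simulated data.

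All 10 members are named. So are the other integrin subunits that were tested, the ligands and adaptors past the limits, the sort genes, summed marker lists and the 3 genes most like the member with the largest change. Genes named by the looser rule, Fermt3, Tln1, single markers and the marker sums without Cd4 or Pecam1 were chosen after their values were seen. The members and lists were chosen with earlier results of these data known. Alternatives were pseudocounts of 0.1 and 10, no filter or one of 5 per 1e+06, rescaling by the median of ratios, quantile normalization, eBayes without trend, arrayWeights, a replicate block, the longest transcript as length and leaving out each sample.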

Additional observations from a re-analysis of the deposited data

Results flagged for a closer look

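In 40 groups of 4 samples (20 tested integrin genes in 2 genotypes), 5 had a sample far from the other 3 by Dixon's criterion, which chance gives in about 1 of 20 groups. Of these, 3 were in the 10 subunits, and 2 came from WT replicate 4. Itgam was highest in WT replicate 4, at 2318 CPM, while WT replicates 1 to 3 had 1957 to 1973 CPM. Itgb2 was highest in the same sample, at 881 CPM against 705 to 725 CPM, and without it the log2 fold change of Itgb2 was 0.67. Itgav was lowest in miR-21-/- replicate 3, at 109 CPM, while replicates 1, 2 and 4 had 117 to 118 CPM. Itga2 was lowest in miR-21-/- replicate 4, at 1.32 CPM against 2.35 to 2.53 CPM. Itga8 was highest in miR-21-/- replicate 2, at 37.6 CPM against 28.9 to 30.2 CPM.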

How the results depend on the processing

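Of the 170 values of the 10 subunits under another setting, 162 kept their direction and their side of the limits, 6 lost the call (Itgb2 in 5, Itga6 in 1, all given with the results) and 2 turned direction, Itgam to 0.046 and Itgb1 to 0.056 under the median of ratios, neither called. Under that rescaling the median of all tested genes moved by 0.10 and 520 genes were higher and 350 lower, against 400 and 586 as deposited, and after quantile normalization 491 and 337. The 10 subunits called were 3 with no filter and after quantile normalization, and 3 to 4 without a sample. By the looser rule 7 of them passed under the median of ratios and arrayWeights, with Itgax and Itgav added, and 4 with no filter, where Itgal was lost. With the longest transcript as length, 7 of 9 neighbours in level were apart in WT and 6 of 9 in miR-21-/- TAMs, against 8 and 7. All tested genes called were 452 with a pseudocount of 10, 515 with no filter, 684 to 1002 without a sample and 4982 by the looser rule. Ligands called were 8 by the looser rule and 2 to 4 without a sample. Adaptors called by limma were 0 with a pseudocount of 10 (12 at an unadjusted p under 0.05), 0 with no filter (14), 0 after quantile normalization (14), 1 under the median of ratios, 11 by the looser rule and 0 to 2 without a sample. The causes were not tested, except that no filter adjusts over more genes. With the replicate number as a block, 922 genes, the same 4 subunits, 4 ligands (F11r added), 2 adaptors and 2 other integrin genes (Itga8 lost) were called. Samples with the same biological replicate number in the labels' descriptions had deviations with correlations of 0.08, -0.11, -0.14 and 0.22. Not every sample correlated best with its own number, but the highest correlation of all was that of replicates 4 (0.22). With 4 samples per genotype this cannot exclude a pairing, and the main fit used none. Precision is set by the 4 samples of each genotype and, in rare transcripts such as Itgae, by depth.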
